A study of Arabidopsis thaliana with 6 samples.

Results

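When soybean GmWRI1 was supplied to Arabidopsis leaf cells, 115 genes that had at most 3 reads in each control library gained at least 10 reads in each GmWRI1 library. They were chosen by the counts of these same 6 libraries: a highest count of 3 over the mCHERRY libraries and a lowest count of 10 over the GmWRI1 libraries, with an unlisted gene set to 0. Of 21671 transcripts with reads, 118 met these limits, and 3 (AT5G27200, AT1G47840 and AT5G07010) were left out by the rule, which left 115. The number that met the limits was 198 without GmWRI1 replicate 3, the shallowest of its group. The mirrored rule, at most 3 counts in each GmWRI1 library and at least 10 in each mCHERRY library, was met by 0 genes. Since the counts chose the genes, their difference between the groups is a description and carries no test here. A count of 3 or fewer does not show that a gene was silent, only that it was near or under what this depth can count.

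The cells were leaf mesophyll protoplasts, leaf cells freed of their walls, from 3-week-old Arabidopsis thaliana plants of ecotype Col-0. The GmWRI1 group was transfected with a plasmid in which the CaMV 35S promoter drives the cDNA of GmWRI1-A, a soybean WRINKLED1 gene, and the mCHERRY group with 35S:mCHERRY, the negative control, which encodes a fluorescent protein. Both groups were incubated for 16 h after transfection, and each had 3 biological replicates. The 35S promoter is active in most plant cells, the plasmids were present transiently, and the share of cells that took up plasmid was not given in the sources used here, so each level is an average over transfected and untransfected cells. In such bulk samples more cells expressing a gene and more RNA per expressing cell cannot be told apart.

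WRINKLED1 (WRI1) is an AP2-type transcription factor known for raising fatty acid and oil synthesis in maturing seeds. It acts by binding a DNA element named the AW Box near the start of its target genes, many of which encode enzymes of glycolysis and fatty acid synthesis. A leaf mesophyll cell already makes fatty acids for its membranes, whereas embryo, meristem and seed genes are normally little used in it.

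The GmWRI1 libraries held 4950522 to 11748328 gene counts and the mCHERRY libraries 4155836 to 8227115, so 3 counts in a mCHERRY library stand for 0.367 to 0.742 CPM, the usual unit of counts scaled by library size, here with the TMM method. Over all 14762 genes that passed the expression filter, 1393 (9.44%) passed as up-regulated by GmWRI1 and 214 (1.45%) as down-regulated, at an adjusted p below 0.05 in the quasi-likelihood test of edgeR and a change of more than 1 on the log2 scale. Of the 115 genes, 106 passed that filter and all 106 were among the up-regulated genes beside the background of 9.44%, which the choice by the same counts makes unavoidable. The other 9 were not tested because their counts were too low for the filter. Markers of mesophyll summed to 569 to 650 CPM in GmWRI1 and 205 to 220 CPM in mCHERRY libraries, with 2 of 5 (RCA and RBCS1A) up-regulated. Those of epidermis summed to 2.22 to 4.36 CPM in GmWRI1 and 2.27 to 5.44 CPM in mCHERRY libraries, and those of guard cells to 1.21 to 3.18 CPM in GmWRI1 and 0.990 to 2.27 CPM in mCHERRY libraries. Markers of phloem, xylem and pollen (10 genes in these 3 lists) summed to at most 0.683 CPM in a GmWRI1 and 1.48 CPM in a mCHERRY library for any list, and 4 of 4 root hair and meristem markers had no read. The part of such cells in the results was not tested.

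The 115 genes together took 0.0809%, 0.123% and 0.0821% of the gene counts in GmWRI1 replicates 1, 2 and 3, against 0.00136%, 0.00186% and 0.00205% in mCHERRY replicates 1, 2 and 3. In reads this was 9501, 8577 and 4062 in the GmWRI1 libraries and 112, 116 and 85 in the mCHERRY libraries. A mCHERRY library had a read for only 50 to 64 of the genes, and 25 genes had no read in any mCHERRY library. The highest mCHERRY count was 1 for 31 genes, 2 for 27 and 3 for 32.

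Most of these genes reached a low level. The mean over GmWRI1 libraries was under 5 CPM for 61 genes, from 5 to under 10 CPM for 31, from 10 to under 20 CPM for 14 and over 20 CPM for 9, with a median of 4.74 CPM and a range of 1.75 to 60.04 CPM. Per kilobase of transcript, the scale on which genes can be compared with each other, the median was 3.44 CPM, against 8.64 CPM for the other 1286 up-regulated genes with a known length and 5.17 CPM for all 20496 transcripts with a length and reads in a GmWRI1 library. The levels per kilobase spanned the 26.0th to the 90.9th percentile of those 20496 transcripts, and 37 of the 115 lay above the 50th. The 5 genes with the highest CPM carried 25.5% of the summed CPM of all 115.

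**Figure D1:**
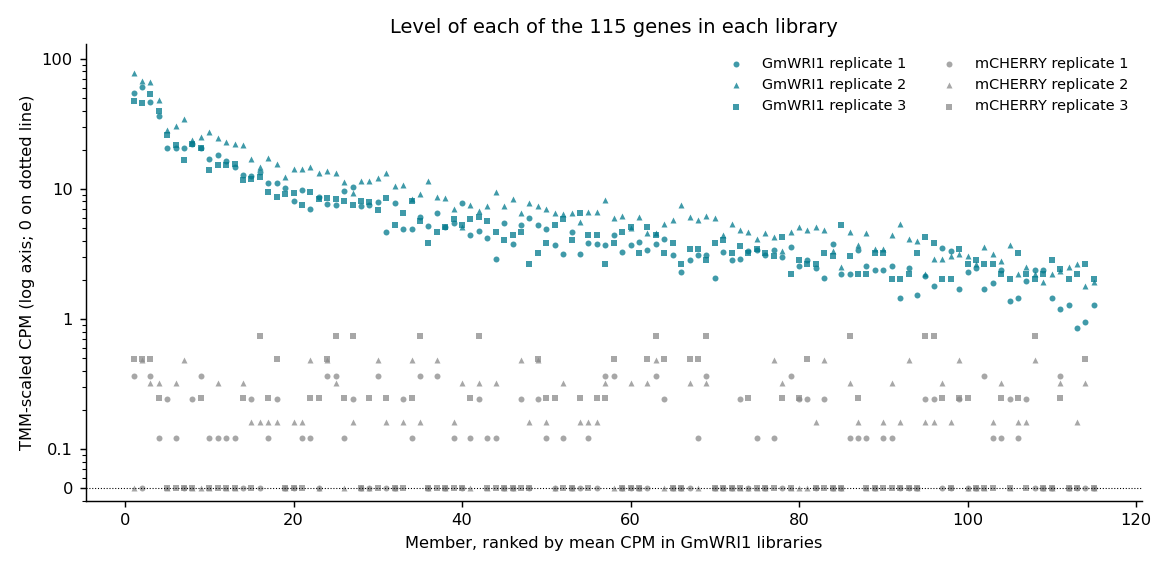
TMM-scaled CPM (log axis) of the 115 genes in each GmWRI1 and each mCHERRY library, with genes ordered along the horizontal axis by their mean in GmWRI1 libraries; points are single libraries, shapes are replicates and 0 is drawn on the dotted line. GmWRI1 means run from 60.04 CPM down to 1.75 CPM, and GmWRI1 replicate 2 is the highest GmWRI1 point for 94 of 115 genes.

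GmWRI1 replicate 2 stood above the other GmWRI1 replicates. It held the highest of the 3 GmWRI1 values for 94 of the 115 genes (81.7%), against 7 for replicate 1 and 14 for replicate 3, and the summed CPM was 812, 1186 and 821 in GmWRI1 replicates 1, 2 and 3. The same replicate was highest for 954 (74.1%) of the other 1287 up-regulated genes. The coefficient of variation over GmWRI1 libraries had a median of 29.8% among the 115 genes, against 16.3% among the other up-regulated genes, which have higher counts. It ran from 4.67% for AT5G03820 to 72.0% for ERF8.

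The size of the rise is bounded rather than measured for many of these genes. For the 90 genes with 1 to 9 reads over the mCHERRY libraries together, the ratio of pooled counts per pooled effective library size (GmWRI1 over mCHERRY) ran from 5.52 for NET3A (95% counting interval 2.34 to 15.9) to 358 for UGT76E2 (63.9 to 14165), with a median of 32.5. The ratio was over 10 for 81 of the 90 and over 50 for 35, and the lower end of the interval was over 10 for 46. The intervals are exact (Clopper-Pearson, conditional on the total) and cover counting error only, since amplified reads are not independent molecules. The upper ends are wide because they rest on very few mCHERRY reads.

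For the 25 genes without a read in any mCHERRY library only a lower bound can be given, computed as the mean GmWRI1 level over the mean level that 3 counts per mCHERRY library would have. These bounds ran from at least 3.28-fold for KCS18 to at least 19.9-fold for AT3G23760, with a median of 7.42, and 7 of the 25 were over 10. With the lowest GmWRI1 level set against the highest floor, the median bound was 4.14 and 1 of the 25 was over 10. With a floor of 3 counts over the mCHERRY libraries together and pooled counts, the basis of the ratios above, all 25 were over 10. AT3G23760 had 119, 90 and 45 counts in GmWRI1 libraries. It is annotated as a glycosyl group transferase and had the highest bound of all, and its closest relative in the genome, AT4G14100 (71.9% protein identity), was up-regulated too, by 3.48 on the log2 scale (SE 0.37, edgeR). AT2G34610, annotated as a cotton fiber protein, had 86, 83 and 40 counts in GmWRI1 libraries, a bound of at least 16.9-fold. AT3G13175, an uncharacterized protein, was at least 14.7-fold higher, and COW1, a Sec14-type phosphatidylinositol transfer protein known from root hair growth, at least 12.9-fold. On this per-library floor the bound was under 5 for 5 genes (KCS18, FRO8, AT1G36060, AT4G29550 and TIP4;1).

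**Figure D2:**
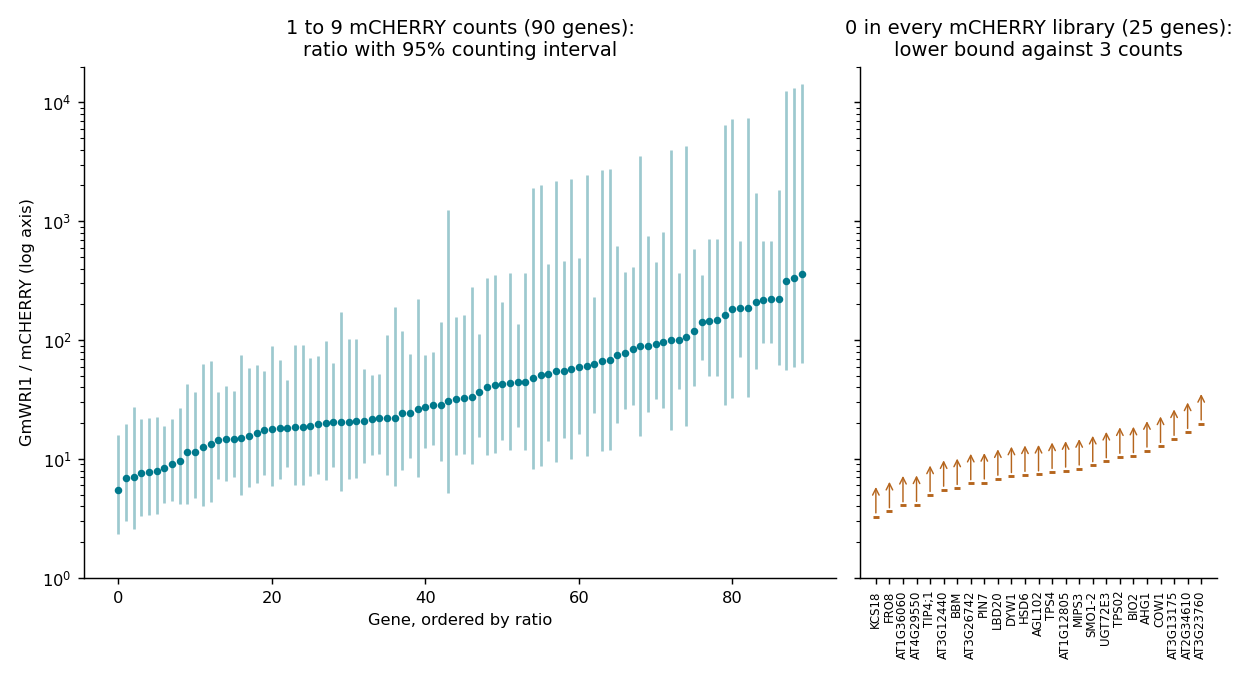
Fold of GmWRI1 over mCHERRY libraries (log axis). Left: the 90 genes with 1 to 9 mCHERRY reads, as the ratio of pooled counts (points) with its 95% counting interval (lines). Right: the 25 genes at 0 in every mCHERRY library, as lower bounds (dashes) with arrows pointing to the unknown higher values. Ratios run from 5.52 to 358 and lower bounds from 3.28 to 19.9.

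The lowest GmWRI1 count was exactly 10 for 9 of the 115 (AT2G25420, ERF8, AT3G61680, AT1G61930, AT3G27250, HYR1, FRO8, AT3G61900 and KCS18). Another 32 genes had a lowest GmWRI1 count of 8 or 9 and stayed outside, and those of highest CPM were GATA4 (71, 68 and 9 counts in GmWRI1, against 1, 2 and 1 in mCHERRY libraries), AT5G61350, AT1G32760, CLO4 and ALPHA-VPE. CLO4, a caleosin of lipid droplets, had 27, 45 and 9 counts in GmWRI1 and 0 in each mCHERRY library. On the mCHERRY side, 28 genes had a highest count of 4 and stayed outside, led by PELPK1 (976, 999 and 451 in GmWRI1, against 1, 1 and 4 in mCHERRY libraries), PR-1-LIKE, AT1G12380, LHCB4.3 and UGT84A4. LEC1, a master regulator of embryo maturation, also fell short, with 28, 10 and 8 counts in GmWRI1 and 1, 1 and 0 in mCHERRY libraries. The most mCHERRY reads among the 115 were the 9 of RAD9, followed by 8 each for AT5G15240, AT2G37530 and CHR40, and 7 each for AT2G41190, AT1G03457, AT5G07140 and AT3G10510.

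Position and sequence around the gene start were not used in the choice. The 115 genes lay on all nuclear chromosomes, with 25, 23, 23, 15 and 29 on chromosomes 1, 2, 3, 4 and 5 (RefSeq annotation of TAIR10.1). Their median transcript length was 1650 bases, against 1624 for all 21452 nuclear genes with reads, and 32 of them (27.8%) had a single exon, against 16.9%. The AW Box, the element that WRI1 binds (CNTNGNNNNNNNCG, searched on both strands), was found within 500 bases downstream of the gene start (that of the primary transcript model) in 72 of the 115 (62.6%), against 795 (61.8%) of 1286 other up-regulated nuclear genes and 41.2% of all nuclear genes with reads. Within 250 bases it was 43 of the 115, and 46 had a box on their own strand within 500 bases. More than 1 AW Box was found there in 36 (31.3%), against 25.6% and 13.4% in these same 2 sets. In the 500 bases upstream, 34 of the 115 (29.6%) had a box, against 23.0% and 18.9%. The CNC Box (CNCCNCC, both strands) was found downstream in 71 of the 115 (61.7%), against 55.8% and 50.0%, and upstream in 19 (16.5%), against 21.6% and 21.2%. More than 1 CNC Box was found downstream in 35 (30.4%), against 31.3% and 25.1%. For the downstream AW Box the 115 and the other up-regulated genes thus differed by under 1 percentage point. A match of letters does not show that the factor binds there.

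**Figure D3:**
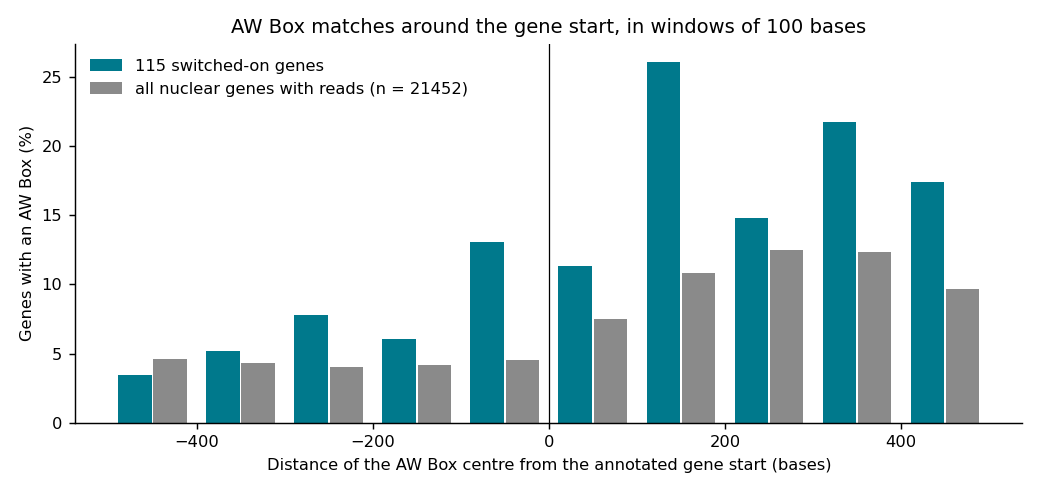
Share of genes with an AW Box match (vertical axis, percent) in windows of 100 bases by the distance of the box centre from the annotated gene start (horizontal axis, bases; positive is downstream), for the 115 switched-on genes and all 21452 nuclear genes with reads. Among the 115 genes the highest share, 26.1%, is in the window from 100 to 200 bases downstream, where it is 10.8% over all genes.

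The downstream window begins at the transcript start, so boxes in it lie in transcribed sequence almost by definition. Of these, 106 boxes of 57 genes were in coding exons, 21 boxes of 20 genes in 5′ UTRs and 5 boxes of 5 genes in introns. The same split over all genes is not given here. The following stretches of 30 bases from RefSeq TAIR10.1 hold AW Boxes of genes described below, chosen to show the positions a box takes, and are read 5′ to 3′ on the strand of the box with the box in capitals.
LBD40: agaagctgCTTGGGTTTGGTCGgagagatc
WEE1: ataatattCATCGTCATGTTCGagaagaac
AIL6: gataataaCCTCGTGATTATCGttttctca
MIPS3: agattcaaCCTTGAAGCTTTCGatgaacat
SMO1-2: tcaacgacCGTCGCCGTCACCGgaaggaaa
BBM: agaaccgcCGTAGATGTTGCCGgagggtac
AT2G41190: tattcttaCTTGGGTTTGTTCGaaatatgg
ACLA-2: gtgcattgCATTGGTTTCTCCGacatgtct
BIO2: ctacgcgaCGTCGTATCATCCGattcaagc
HSD6: tcagttttCCTTGTTCTCTCCGctttcgga
The boxes of LBD40 (chr1:25053682-25053695, minus strand), WEE1 (chr1:673401-673414, plus strand), AIL6 (chr5:3315650-3315663, plus strand), SMO1-2 (chr4:11956724-11956737, minus strand) and AT2G41190 (chr2:17170150-17170163, minus strand) lay in the 5′ UTR, centred 16, 102, 128, 188 and 403 bases downstream of the gene start. Those of MIPS3 (chr5:3190140-3190153, plus strand) and BBM (chr5:5745460-5745473, minus strand) lay in coding exons, at 175 and 282 bases, and that of ACLA-2 (chr1:22390821-22390834, minus strand) in an intron, at 410 bases. BIO2 (chr2:18013477-18013490, plus strand) and HSD6 (chr5:20648735-20648748, plus strand) had these boxes upstream, at -231 and -16 bases, and BIO2 had 0 boxes in its downstream window but 4 wholly within the upstream one and 1 across the gene start. The gene AT2G43370 lies 15 bases from BIO2 on that side and was itself up-regulated, by 1.28 on the log2 scale. The upstream boxes of BIO2 therefore cannot be assigned to BIO2 alone. The most boxes downstream of any of the 115 were the 7 of AT2G16760, annotated as a calcium-dependent phosphotriesterase.

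By annotation the 115 genes were sorted into 10 groups, of which transcription and chromatin (18 genes), lipid and acyl metabolism (15) and hormones and specialised metabolism (14) were the largest named ones. Another 18 were sorted as other or uncharacterized. Per kilobase, group medians ran from 2.52 CPM for kinases, receptors and signalling and for sugar, inositol and cell wall (10 genes each) to 5.57 CPM for proteases and ubiquitin (8 genes). The groups were drawn up after the members were known and are an ordering, not a result.

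**Figure D4:**
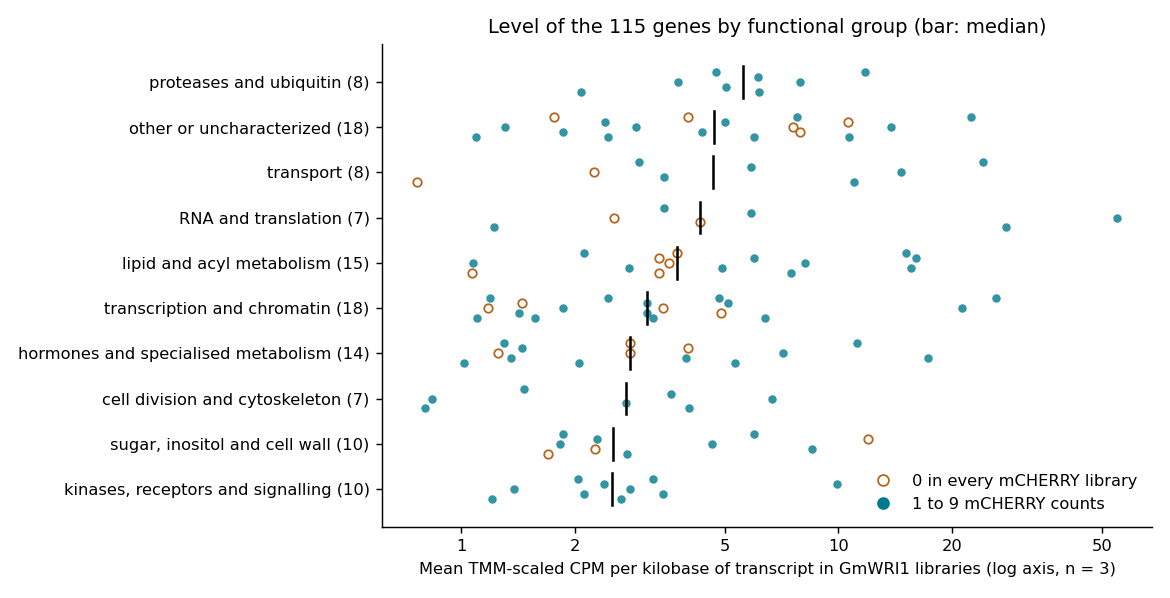
Mean TMM-scaled CPM per kilobase of transcript in GmWRI1 libraries (log axis, n = 3) for the 115 genes by functional group; bars are group medians, open points are genes at 0 in every mCHERRY library and filled points have 1 to 9 mCHERRY reads. Group medians lie between 2.52 and 5.57 CPM per kilobase, and the highest single gene, AT2G32550, reaches 54.8.

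Among transcriptional regulators, AGL87 (AT1G22590, chromosome 1, 7981722 to 7984334), a MADS-box factor, reached the highest level per kilobase, 26.2 CPM. It had 713, 488 and 225 counts in GmWRI1 libraries and 0, 3 and 2 in mCHERRY libraries, and averaged 58.0 ± 11.3 CPM in GmWRI1 libraries (SD, n = 3), a ratio of 219 (93.8 to 677). Its relative of highest protein identity, AT3G05860 (34.6%), had no read in any library. A pair of other MADS-box genes met the limits as well, AGL39 (37, 46 and 29 counts in GmWRI1, against 1, 2 and 0 in mCHERRY libraries) and AGL102 (24, 43 and 19 in GmWRI1, against 0 in each mCHERRY library).

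LBD40 (AT1G67100, chromosome 1, 25053673 to 25054864) belongs to the LOB-domain family of plant-specific DNA-binding proteins. It had 240, 180 and 102 counts in GmWRI1 libraries and 3, 0 and 1 in mCHERRY libraries, a ratio of 100.4 (39.0 to 370). LBD41, its closest relative (57.9% identity), had 85, 37 and 27 counts in GmWRI1 and 66, 59 and 24 in mCHERRY libraries. The LOB-domain genes ASL9 (52, 43 and 19 in GmWRI1, against 3, 0 and 2 in mCHERRY libraries) and LBD20 (36, 33 and 16 in GmWRI1, against 0 in each mCHERRY library) also met the limits.

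The AP2 factors BBM and AIL6 belong, like WRI1 itself, to the AP2 family, and their PLETHORA subgroup is known for embryo and meristem identity. BBM (BABY BOOM, AT5G17430, chromosome 5, 5742393 to 5745748), which can induce embryos when overexpressed, had 28, 25 and 16 counts in GmWRI1 and 0 in each mCHERRY library, at least 5.69-fold higher. AIL6 (AT5G10510, chromosome 5, 3315401 to 3320323) had 29, 30 and 11 counts in GmWRI1 and 0, 3 and 0 in mCHERRY libraries, a ratio of 18.0 (5.90 to 89.2). BBM and AIL6 were 72.6% identical over 234 aligned residues. Of the 6 other PLETHORA genes listed, AIL7 was the 1 tested and was up-regulated, averaging 11.3 ± 2.9 CPM in GmWRI1 and 2.84 ± 0.36 CPM in mCHERRY libraries (SD, n = 3; difference 1.95 on the log2 scale, SE 0.26, edgeR adjusted p = 4.8e-06). ANT, PLT1, PLT2 and AIL5 had no read, and AIL1 had 1 read in all.

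Other DNA-binding and chromatin proteins followed. VIN3 (AT5G57380), a PHD-finger protein of the vernalization response, had 70, 56 and 13 counts in GmWRI1 and 0, 1 and 0 in mCHERRY libraries. Its relatives VRN5 and VEL1 were present in both groups, at 37.5 ± 3.3 and 53.7 ± 2.2 CPM in GmWRI1 and 22.1 ± 6.1 and 39.7 ± 4.8 CPM in mCHERRY libraries (SD, n = 3), and neither passed the fold limit. ET2, a seed-associated effector of transcription, had 62, 47 and 23 counts in GmWRI1 and 2, 3 and 0 in mCHERRY libraries. AT5G63700, annotated as a zinc ion and DNA-binding protein, had 82, 107 and 47 in GmWRI1 and 1, 3 and 1 in mCHERRY libraries. HAT2, an auxin-responsive HD-ZIP factor, had 27, 22 and 13 in GmWRI1 and 0, 0 and 1 in mCHERRY libraries. The AP2/ERF genes ERF8 (17, 39 and 10 in GmWRI1, against 0, 1 and 0 in mCHERRY libraries) and AT1G36060 (17, 16 and 14 in GmWRI1, against 0 in each mCHERRY library), the FAR1-related AT3G07500 (20, 23 and 17 in GmWRI1, against 2, 3 and 1 in mCHERRY libraries) and the HMG-box gene AT1G76110 (23, 18 and 11 in GmWRI1, against 2, 1 and 0 in mCHERRY libraries) also met the limits. Of 16 seed and embryo regulators listed, 0 met the rule, beside 118 of all 21671 transcripts with reads, and 6 had no read. The list does not hold BBM and AIL6, which were put on the PLETHORA list. Of the 16, 3 were tested (ABI5, WRI1 and EEL) and 0 of these were up-regulated or down-regulated. Over all tested genes 9.44% were up-regulated and 1.45% down-regulated, so counts this small do not set the list apart. LEC1 is on the same list but was not tested, with 28, 10 and 8 counts in GmWRI1 and 1, 1 and 0 in mCHERRY libraries. The study itself reports LEC1 as up-regulated by GmWRI1 in leaf protoplasts.

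The lipid and acyl group held 15 genes, 5 of them without a mCHERRY read. ACLA-2 (AT1G60810, chromosome 1, 22388527 to 22391237) encodes a subunit of ATP-citrate lyase, which makes cytosolic acetyl-CoA. It had 243, 206 and 128 counts in GmWRI1 and 2, 0 and 0 in mCHERRY libraries, and averaged 25.04 ± 3.93 CPM in GmWRI1 libraries (SD, n = 3), a ratio of 222 (61.2 to 1838). Of the 4 other subunit genes, ACLB-2 was up-regulated (144 ± 23 CPM in GmWRI1 and 7.71 ± 0.97 CPM in mCHERRY libraries, SD, n = 3; log2 fold change 4.21, SE 0.15, edgeR adjusted p = 1.4e-15) and ACLA-1 was up-regulated by 1.28 on the log2 scale (SE 0.10, edgeR adjusted p = 2.5e-09). ACLA-3 (0.31) and ACLB-1 (-0.43) stayed within the fold limit. ACLA-1 and ACLA-2 are 90.7% identical in protein, and reads that match both equally well were discarded by the authors, so both counts are uncertain.

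BIO2 (AT2G43360, chromosome 2, 18010676 to 18013252) encodes biotin synthase, the last step in making the cofactor that acetyl-CoA carboxylase needs. It had 64, 53 and 20 counts in GmWRI1 and 0 in each mCHERRY library, at least 10.6-fold higher. The other synthesis genes were up-regulated as well, BIOF by 4.02 on the log2 scale (SE 0.28, edgeR adjusted p = 1.6e-10) and BIO3-BIO1 by 3.83 (SE 0.44, edgeR adjusted p = 4.8e-07). HCS1, which attaches biotin to proteins, was not called (log2 fold change -0.17, edgeR adjusted p = 0.60). All 3 synthesis genes were thus up-regulated or met the limits, while the tested attachment gene did not pass.

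Sterol and sphingolipid genes were also among the 15. SMO1-2 (AT4G22756), a sterol methyl oxidase, had 38, 45 and 23 counts in GmWRI1 and 0 in each mCHERRY library, at least 8.85-fold higher, and its relatives SMO1-1 and SMO1-3 were up-regulated by 3.18 (SE 0.24) and 2.02 (SE 0.12) on the log2 scale. SMO2-1 (0.34) and SMO2-2 (0.92), also tested, stayed within the fold limit. SMO1-1 is 87.6% identical to SMO1-2. FK (FACKEL), a sterol reductase of embryo patterning, had 33, 35 and 13 counts in GmWRI1 and 2, 0 and 2 in mCHERRY libraries. SLD2 (AT2G46210, chromosome 2, 18977344 to 18979309), a desaturase of sphingolipid bases, had 113, 81 and 40 counts in GmWRI1 and 1, 0 and 1 in mCHERRY libraries, whereas SLD1 averaged 101 ± 3.4 CPM in GmWRI1 and 102 ± 4.0 CPM in mCHERRY libraries (SD, n = 3; log2 fold change -0.02, SE 0.09).

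Among genes tied to stored lipid, HSD6 (AT5G50770), of the steroleosin family of lipid droplet proteins, had 38, 32 and 20 counts in GmWRI1 and 0 in each mCHERRY library, at least 7.34-fold higher. KCS18 (AT4G34520, chromosome 4, 16494205 to 16495842), the seed elongase also known as FAE1, had the lowest CPM of all, with 15, 14 and 10 counts in GmWRI1 and 0 in each mCHERRY library. AT3G61680, which encodes the plastid lipase PLIP1, had 41, 21 and 10 counts in GmWRI1 and 0, 2 and 1 in mCHERRY libraries, and the wax synthase-like gene AT3G49190 had 43, 59 and 13 in GmWRI1 and 3, 2 and 1 in mCHERRY libraries. FAP3, a fatty acid-binding protein of the plastid stroma, had 88, 83 and 39 counts in GmWRI1 and 0, 0 and 1 in mCHERRY libraries. Seed storage proteins were not among the 115. The 9 listed had 0 tested genes and at most 0.138 CPM in sum in a GmWRI1 library, and 7 of them had no read. Of the 9 oleosins and caleosins, 2 were tested and 4 had no read. CLO4 was up-regulated, and CLO3, the other tested one, was not called (log2 fold change -0.05).

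Several hydrolases have less certain substrates. The carboxylesterase CXE18 had 241, 249 and 82 counts in GmWRI1 and 0, 3 and 0 in mCHERRY libraries. The GDSL lipase-like gene AT5G03820 (chromosome 5, 1015586 to 1017514) had 259, 173 and 109 counts in GmWRI1 and 2, 0 and 0 in mCHERRY libraries, and its values in GmWRI1 libraries, 22.1, 23.9 and 22.04 CPM, were the most even of the 115. Its neighbour by sequence, AT5G03810, is 90.1% identical in protein and had 1 read over all libraries.

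In sugar and inositol metabolism, MIPS3 (AT5G10170, chromosome 5, 3187277 to 3190321) encodes a synthase of inositol phosphate, the precursor of inositol lipids and phytate. It had 46, 44 and 16 counts in GmWRI1 and 0 in each mCHERRY library, at least 8.30-fold higher. Its relatives MIPS1 and MIPS2 averaged 139 ± 16 and 40.0 ± 7.9 CPM in GmWRI1 and 5.95 ± 0.92 and 3.26 ± 0.97 CPM in mCHERRY libraries (SD, n = 3), with log2 fold changes of 4.51 (SE 0.14) and 3.65 (SE 0.21). All 3 genes of the family were thus up-regulated or met the limits. MIPS3 and MIPS2 are 89.8% identical in protein, and MIPS3 also overlaps AT5G10160 on the opposite strand, which had 900, 592 and 323 counts in GmWRI1 and 26, 16 and 15 in mCHERRY libraries, so its counts are uncertain. TPS4, a trehalose phosphate synthase, had 27, 54 and 13 counts in GmWRI1 and 0 in each mCHERRY library, and TPS1, its tested relative, was up-regulated by 1.17 on the log2 scale (SE 0.21, edgeR adjusted p = 0.00018). The glycosyl hydrolase genes AT3G47010 (40, 30 and 17 in GmWRI1, against 1, 0 and 0 in mCHERRY libraries) and AT3G47040 (39, 34 and 16 in GmWRI1, against 0, 0 and 1 in mCHERRY libraries) are 75.5% identical to each other in protein and both lie on chromosome 3. ATPMEPCRB, a pectin methylesterase, had 130, 113 and 43 counts in GmWRI1 and 2, 1 and 2 in mCHERRY libraries.

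Genes tied to abscisic acid, auxin and brassinosteroid were among the 115. AHG1 (AT5G51760, chromosome 5, 21026805 to 21029188), a protein phosphatase 2C that restrains abscisic acid signalling in seeds, had 60, 62 and 25 counts in GmWRI1 and 0 in each mCHERRY library, at least 11.8-fold higher. Of its 8 clade A relatives, 7 were tested and 0 were called, with a median log2 fold change of 0.02. Over all tested genes 9.44% were up-regulated and 1.45% down-regulated, so 0 of 7 does not set this family apart. ABI1, that of highest CPM, averaged 323 ± 12 CPM in GmWRI1 and 318 ± 32 CPM in mCHERRY libraries (SD, n = 3). PIN7, an auxin efflux carrier, had 44, 24 and 15 counts in GmWRI1 and 0 in each mCHERRY library, at least 6.34-fold higher, while no other PIN gene had more than 10 counts in any library. GH3.3, which conjugates auxin, had 25, 16 and 21 counts in GmWRI1 and 2, 1 and 3 in mCHERRY libraries. ROT3, a cytochrome P450 of brassinosteroid synthesis, had 24, 35 and 16 counts in GmWRI1 and 2, 3 and 0 in mCHERRY libraries.

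The group of hormones and specialised metabolism held 3 glycosyltransferase genes (UGT76E2, UGT72E3 and HYR1) and the terpene synthase gene TPS02. UGT76E2 (AT5G59590) had 197, 199 and 69 counts in GmWRI1 and 1, 0 and 0 in mCHERRY libraries. Its neighbour UGT76E1, 957 bases away and 88.2% identical, had 46, 31 and 25 counts in GmWRI1 and 5, 1 and 0 in mCHERRY libraries and was up-regulated (log2 fold change 3.69, SE 0.52, edgeR adjusted p = 7.4e-06). UGT72E3, which glucosylates lignin precursors, had 55, 47 and 20 counts in GmWRI1 and 0 in each mCHERRY library, at least 9.55-fold higher, and UGT72E2, 85.7% identical, had no read. The terpene synthase TPS02 had 44, 61 and 22 counts in GmWRI1 and 0 in each mCHERRY library, at least 10.4-fold higher. In the same list TPS04 was down-regulated, averaging 178 ± 21 CPM in GmWRI1 and 382 ± 20 CPM in mCHERRY libraries (SD, n = 3; log2 fold change -1.10, SE 0.10, edgeR adjusted p = 6.5e-09). The dioxygenase gene AT1G28030 had 173, 160 and 77 counts in GmWRI1 and 1, 0 and 0 in mCHERRY libraries.

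**Figure D5:**
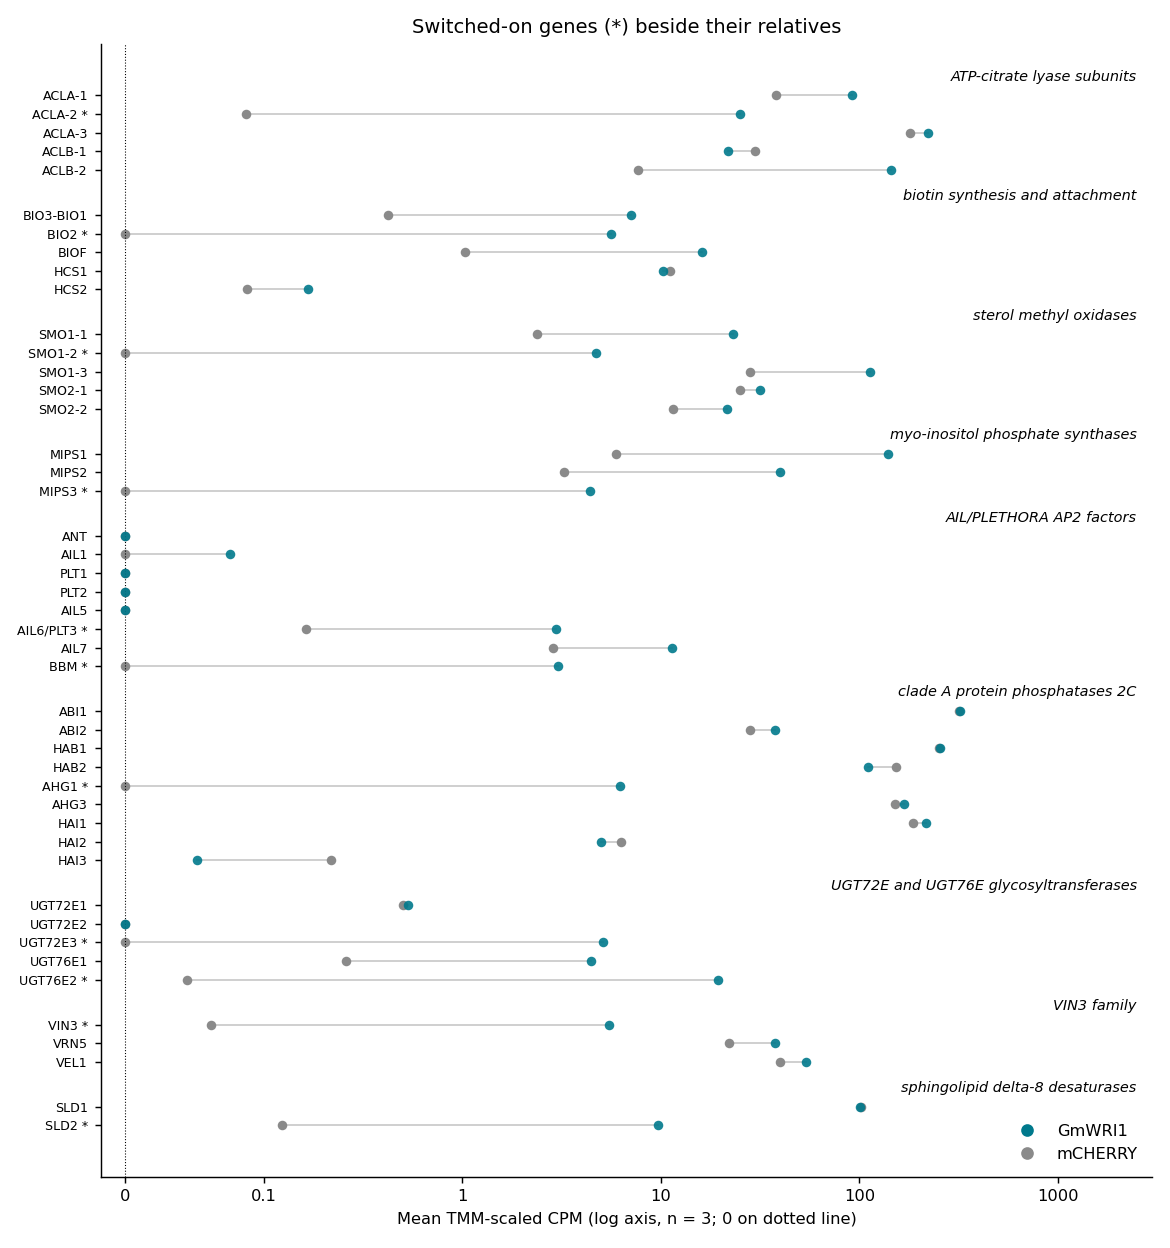
Mean TMM-scaled CPM (log axis, n = 3 libraries per group, 0 on the dotted line) in GmWRI1 and mCHERRY libraries for genes of selected lists, with the switched-on genes marked by an asterisk and a line joining the 2 means of each gene. ACLA-2, BIO2, MIPS3 and SMO1-2 stand beside relatives of which some were also up-regulated. Of the tested relatives of AHG1 (7) and SLD2 (1), 0 were called, beside 9.44% up-regulated over all tested genes.

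The highest level per kilobase of the 115, 54.8 CPM, was that of AT2G32550 (chromosome 2, 13819352 to 13822861), which encodes a protein of the RCD1 family, known for subunits of the CCR4-NOT mRNA deadenylation complex. It had 634, 566 and 236 counts in GmWRI1 and 3, 0 and 2 in mCHERRY libraries, and averaged 60.04 ± 16.1 CPM in GmWRI1 libraries (SD, n = 3), a ratio of 221 (94.5 to 682). It was the 1 gene of the 115 in the top 10% per kilobase. AT5G63070, of the ribosomal protein S19 family, had 146, 123 and 59 counts in GmWRI1 and 2, 1 and 0 in mCHERRY libraries. The ribonuclease T2 gene AT1G14210 had 58, 51 and 19 counts in GmWRI1 and 1, 1 and 1 in mCHERRY libraries. DYW1, a chloroplast RNA editing factor, had 33, 39 and 16 in GmWRI1 and 0 in each mCHERRY library.

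Of the 8 transport genes, AT2G41190 (chromosome 2, 17167279 to 17170559), annotated as an amino acid transporter, reached the highest level per kilobase, 24.1 CPM. It had 547, 477 and 267 counts in GmWRI1 and 3, 2 and 2 in mCHERRY libraries, and averaged 55.6 ± 9.7 CPM in GmWRI1 libraries (SD, n = 3), a ratio of 142 (68.7 to 354). A second gene with that annotation, AT5G15240, had 89, 99 and 42 counts in GmWRI1 and 3, 3 and 2 in mCHERRY libraries. The bestrophin-like gene AT2G45870 (242, 220 and 108 in GmWRI1, against 1, 2 and 0 in mCHERRY libraries) and the CBS-domain gene AT1G03270 (215, 177 and 76 in GmWRI1, against 1, 2 and 0 in mCHERRY libraries) followed. FRO8, a ferric reductase, had 15, 18 and 10 counts in GmWRI1 and 0 in each mCHERRY library, and its relative FRO7 was up-regulated by 3.79 on the log2 scale (SE 0.27, edgeR adjusted p = 2.2e-10). The other tested ferric reductase, FRO3, was not called (log2 fold change 0.02, edgeR adjusted p = 0.93).

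Cell division (7 genes) and protein turnover (8 genes) were also represented. WEE1 (AT1G02970, chromosome 1, 673306 to 676419), a kinase that holds back the cell cycle, had 129, 126 and 47 counts in GmWRI1 and 1, 1 and 1 in mCHERRY libraries, a ratio of 77.5 (26.3 to 378). MAP65-2, which bundles microtubules, had 92, 87 and 34 counts in GmWRI1 and 3, 3 and 0 in mCHERRY libraries. Of the 11 other listed genes of dividing cells, 5 were tested and 3 (POK2, EB1C and ORC6) were up-regulated, while CYCB1;1, a marker of division itself, had 7, 2 and 7 counts in GmWRI1 and 11, 11 and 6 in mCHERRY libraries. CDKB2;1 differed by -0.94 on the log2 scale (SE 0.32, edgeR adjusted p = 0.027), short of the fold limit. Among protein turnover genes, the subtilase AT3G14240 had 193, 167 and 76 counts in GmWRI1 and 1, 0 and 0 in mCHERRY libraries, scpl26, a serine carboxypeptidase-like gene, had 158, 106 and 61 in GmWRI1 and 0, 1 and 3 in mCHERRY libraries, and the RING-type gene AT4G28890 had 95, 103 and 46 in GmWRI1 and 0, 1 and 0 in mCHERRY libraries. AT4G36700 (chromosome 4, 17298200 to 17300367), sorted as other or uncharacterized, is of the cupin superfamily to which seed storage globulins also belong. It had 426, 347 and 196 counts in GmWRI1 and 1, 2 and 1 in mCHERRY libraries, a ratio of 186 (72.6 to 686). CBSX5, a CBS-domain protein, had 150, 157 and 58 in GmWRI1 and 0, 2 and 1 in mCHERRY libraries.

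All 10 genes of kinases, receptors and signalling had some mCHERRY reads. The same held for all 7 genes of cell division and cytoskeleton and all 8 of proteases and ubiquitin. Over all groups 90 genes had mCHERRY reads and 25 had none, so this does not set the kinase group apart. CPK22, a calcium-dependent kinase, had 43, 47 and 26 counts in GmWRI1 and 0, 0 and 1 in mCHERRY libraries, and CIPK4, a kinase that works with calcium sensors, had 30, 37 and 14 in GmWRI1 and 2, 0 and 1 in mCHERRY libraries. The protein kinase gene AT2G44830 had 91, 37 and 26 in GmWRI1 and 0, 2 and 0 in mCHERRY libraries. AT5G67200, a leucine-rich repeat kinase gene, had 45, 48 and 22 in GmWRI1 and 1, 1 and 0 in mCHERRY libraries, and RLP15, a receptor-like protein gene, 35, 24 and 21 in GmWRI1 and 0, 2 and 1 in mCHERRY libraries. AT5G13600, of the NPH3 family known from phototropism, had 49, 53 and 28 in GmWRI1 and 1, 0 and 0 in mCHERRY libraries. The kinase genes AT5G66710, AT5G37790 and AT5G07140 made up the rest with CBSX5.

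Further members of the other groups had counts of the same order. In the transport group, CAT6, a cationic amino acid transporter, had 58, 61 and 40 counts in GmWRI1 and 1, 3 and 1 in mCHERRY libraries, and OCT2, of the organic cation transporters, 76, 63 and 23 in GmWRI1 and 3, 3 and 0 in mCHERRY libraries. DHNAT2, a thioesterase of vitamin K synthesis, had 64, 51 and 29 in GmWRI1 and 1, 1 and 0 in mCHERRY libraries. TPPJ, a trehalose phosphate phosphatase, acts one step after TPS4 and had 37, 40 and 32 in GmWRI1 and 0, 1 and 1 in mCHERRY libraries. BRXL1, a relative of the root growth regulator BREVIS RADIX, had 120, 67 and 37 in GmWRI1 and 2, 1 and 3 in mCHERRY libraries. AT2G33010, with a ubiquitin-associated domain, had 101, 96 and 41 in GmWRI1 and 0, 0 and 1 in mCHERRY libraries. ADF9, an actin depolymerizing factor, had 40, 27 and 11 in GmWRI1 and 1, 1 and 1 in mCHERRY libraries. The lipid transfer protein gene AT5G09370 had 43, 36 and 25 in GmWRI1 and 0, 2 and 0 in mCHERRY libraries. FLA8, a fasciclin-like arabinogalactan protein of the cell surface, had 48, 39 and 16 in GmWRI1 and 2, 0 and 2 in mCHERRY libraries. The lowest levels per kilobase were those of FRO8 (0.766 CPM), TRM14 (0.803 CPM) and KICP-02 (0.836 CPM), with 16 counts or more in each GmWRI1 library for the last pair.

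Over the 15 lists that hold one of the 115, 74 further genes were listed and 37 of them tested. Of these, 15 were up-regulated and 1 was down-regulated, with a median log2 fold change of 0.49, beside 9.44% up-regulated and a median of -0.01 over all tested genes. The lists were drawn around these genes with results known, so the count describes the families and is no test of them.

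The closest relative by protein sequence was identified for 106 of the 115 (at least 50% of the longer protein aligned), with a median identity of 58.2%, and in 0 cases was it itself one of the 115. In mCHERRY libraries the relative had at least 10 counts in each for 40 of the 106 and at most 3 in each for 44, and for 34 it had at most 3 in every library. Of 50 distinct relatives tested, 11 were up-regulated and 0 down-regulated, with a median log2 fold change of 0.31. Over all tested genes 9.44% were up-regulated and 1.45% down-regulated, with a median of -0.01. A relative at 90% identity or more was found for 2 genes (ACLA-2 and AT5G03820).

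Few of the genes lay next to each other. The only pair of direct neighbours was AT1G03457, an RNA-binding protein gene (71, 66 and 28 counts in GmWRI1, against 3, 1 and 3 in mCHERRY libraries), and NET3A, an actin-binding protein gene (14, 17 and 12 in GmWRI1, against 3, 2 and 1 in mCHERRY libraries), 1522 bases apart. AT3G27025 and AT3G27030, both uncharacterized, lay on either side of AT3G27027, with gaps of 90 and 277 bases, and AT3G27027 had 1 read in all. A tested neighbour was up-regulated for 14 of 83 genes with one (16.9%), against 19.0% for other up-regulated genes and 12.8% for all nuclear genes with reads. Overlap with another annotated gene was found for 15 of the 115, and with an up-regulated gene for 2, MIPS3 and AT1G20470, whose opposite-strand partner AT1G20480 had 243, 147 and 85 counts in GmWRI1 and 7, 4 and 4 in mCHERRY libraries. Strand was not stated to be used in counting and only uniquely placed reads were kept, so reads from sequence that both transcripts share may be missing from both counts.

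Of the 115 genes, 43 (37.4%, or 3.54% of that list) were on the list of genes lower in atwri1-1 mutant than in wild-type embryos, a separate experiment with other samples. The same held for 342 (26.6%) of the other 1287 up-regulated genes and 5.33% of all transcripts with reads. AGL87, AT2G32550, AT2G41190, AT4G36700 and ACLA-2, the 5 genes of highest CPM, were all on it, as were BIO2, MIPS3, SMO1-2, SLD2, HSD6, PIN7 and WEE1. BBM, AIL6, AHG1, LBD40 and KCS18 were not. On the list of genes higher in the mutant embryos was 1 of the 115, AT3G61680 (0.870%), against 0.778% of the other up-regulated genes and 1.11% of all transcripts with reads. Arabidopsis homologs of soybean fatty acid and triacylglycerol genes made up 2 of the 115 (SLD2 and AT3G49190), or 1.74%. This compares with 5.83% of the other up-regulated genes and 1.26% of all transcripts with reads.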

How the data were processed

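RNA was measured in 3 GmWRI1 and 3 mCHERRY libraries of leaf mesophyll protoplasts. Per the study's methods, the authors removed rRNA reads and mapped the rest to TAIR10 primary transcripts with Bowtie 0.12.7, with up to 2 mismatches, and kept only uniquely placed reads. The deposited counts are raw reads per primary transcript, and a missing transcript was set to 0. A line naming no gene (39.4% to 63.3% of a file) was left out of library sizes, on the assumption that it holds reads not assigned to a transcript, since its content is not stated in the sources used here. The deposited TMM-normalized table, made by the authors with edgeR 3.10.5, was not used, and 0 per-sample columns lacked a sample.

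Genes were selected on these counts, at most 3 in each mCHERRY and at least 10 in each GmWRI1 library. The members, the functional groups and the gene lists were chosen with earlier results of these data known. The whole table was fitted in edgeR 4.0.16 under R 4.3.3 (filterByExpr, minimum count 10, TMM, glmQLFit, glmQLFTest, Benjamini-Hochberg adjustment; up-regulated at adjusted p under 0.05 and log2 fold change over 1). On simulated counts with genes changed by known amounts the fit was tested beforehand. CPM values are TMM-scaled. Lower bounds use a floor of 3 counts in each mCHERRY library, and intervals (95%) are exact conditional ones that cover counting error only. Depth was 4155836 to 11748328 counts per library.

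Gene models, coordinates and sequences came from RefSeq (TAIR10.1), to which all 115 genes matched, while the counts were made on TAIR10 transcripts. Proteins translated from it were compared with blastp, over 27444 proteins. Named were the 20 genes of highest CPM, those on a list with relatives, transcription factor genes, neighbouring or at least 60% identical members, those with the lowest GmWRI1 and highest mCHERRY counts (ties included), and the nearest genes outside each limit. AT4G14100, AT2G34610, AT3G13175 and COW1 and further members given for their group were named after their values were seen.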

Additional observations from a re-analysis of the deposited data

How the results depend on the processing

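The number of genes that met the rule depended on its limits. It was 27 with 0 counts in each mCHERRY library, 58 with at most 1, 61 with at least 20 in each GmWRI1 library and 234 with at least 5, against 118. With counts scaled to the shallowest library it was 101, of which 84 were among the 118. Without single libraries it ran from 120 to 198, the highest without GmWRI1 replicate 3, the shallowest of its group. The mirrored rule gave 0 to 1 genes without single libraries, the 1 coming without mCHERRY replicate 3. Of genes at 0 in mCHERRY libraries, 7 had a bound over 10-fold, 1 with the lowest GmWRI1 level over the highest floor and 25 with a floor of 3 counts over the group. A downstream AW Box was found in 43 of the 115 within 250 bases and in 46 on the gene's own strand, against 72. The median level in GmWRI1 libraries ran from 4.10 to 5.19 CPM without single libraries.

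Replicate numbers were not used to pair the samples. The deviations of same-numbered libraries correlated at 0.103, -0.00752 and 0.0430, and those of differently numbered ones at -0.0739 to 0.0274. Such low values cannot show whether the replicates were prepared in pairs. With the replicate block, 1390 genes were up-regulated against 1393, the same 106 members among them, and 16 listed relatives against 15. Up-regulated members numbered 105 to 115 over all alternatives, and up-regulated genes 1258 to 1671. The rises are limited by depth on the mCHERRY side, where a few reads set each ratio.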
